A study of Mus musculus with 172 samples.

Results

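Primitive endoderm (PrE) is the epithelium that forms beneath the epiblast (EPI) in the late mouse blastocyst and later gives rise to the visceral and parietal endoderm of the yolk sacs. The samples compared here follow control cells from the inner cell mass (ICM) of the embryonic day (E) 3.5 blastocyst to the PrE of the E4.5 blastocyst. They were chosen by their labels: every E3.5 ICM cell genotyped as wild type (WT) or heterozygous (HET) for the Pou5f1 null allele, which removes the transcription factor OCT4, and every E4.5 WT or HET cell labelled PrE. This gave 87 of the 172 cells of the series. The E3.5 group had 58 cells from 7 embryos, 42 WT cells from 5 embryos and 16 HET cells from 2 embryos. The PrE group had 29 cells from 6 embryos, 7 WT cells from 2 embryos and 22 HET cells from 4 embryos. The 37 EPI cells of the same 6 E4.5 embryos served as a reference, and the OCT4-null cells of the series were not used. Embryos came from matings of HET mice of mixed genetic background, so that HET cells carry 1 null allele and are controls only in the sense used by the study.

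ICM cells are bipotent and hold the EPI factor NANOG together with the PrE factor GATA6. Fibroblast growth factor 4 (FGF4), secreted by EPI precursors, acts through FGF receptors and ERK signalling to favour the PrE fate, and the transcription factors GATA6, SOX17, GATA4 and SOX7 are known to appear one after another as that fate is set. The PrE then lays down the basement membrane on which it sits, and takes up material through endocytic receptors. Its progeny, the parietal endoderm, is known for secreting very large amounts of laminin, type IV collagen and SPARC.

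Inner cell masses were isolated by immunosurgery, which lyses the trophectoderm with antibody and complement, and single cells were sequenced with Smart-seq2, a full-length method without molecular identifiers. Cells were not sorted, and the study assigned E4.5 cells to PrE or EPI from these same transcriptomes, so that PrE markers describe the assigned classes and are not an independent test of them. Read pairs assigned to genes ranged from 363819 to 3689136 in ICM cells and from 611759 to 2760717 in PrE cells. The counts of each embryo's cells were added up, giving 8539537 to 17453036 counts for each of the 7 ICM sums and 2736296 to 13356319 for each of the 6 PrE sums, the smallest of which (embryo 6) rested on 2 cells. All E3.5 cells were on one plate and all E4.5 cells on another, so stage and plate cannot be told apart. A median of 9398 genes was detected in ICM cells and 7169 in PrE cells, the median share of read pairs that mapped to several places was 38.8% and 19.7%, and the median share of mitochondrial counts was 9.45% and 3.22%, and their part in the changes was not tested. EPI cells lay close to PrE cells in all of these measures (6965 genes, 24.9% and 3.83%), so a difference between PrE and EPI separates cells of 1 plate and 1 set of embryos.

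Markers of cells from outside the ICM were measured in both groups. Of 7 markers of blood, stroma and uterus, 5 had no count in any ICM sum and 5 had none in any PrE sum, and their summed level reached at most 0.935 CPM (counts per sum, scaled to the same library total in all sums) in ICM and 7.42 CPM in PrE. The 6 trophectoderm markers summed to 17.6 to 95.7 CPM in ICM and 0 to 15.3 CPM in PrE. Cdx2, the factor that specifies trophectoderm, had 1 count or more in 13 of 58 ICM cells and in 1 of 29 PrE cells. The 5 oocyte markers summed to 1.35 to 10.8 CPM in ICM and 0 to 41.3 CPM in PrE. All of the PrE level was Zp3, at 41.3 CPM in embryo 1 and 6.88 CPM in embryo 4. Zp3 ranged from 0 to 67.0 CPM in the EPI sums. The 6 EPI markers summed to 674 to 1290.0 CPM in ICM, 175 to 346 CPM in PrE and 2024 to 3860.0 CPM in EPI, and their part in the changes was not tested. Most of each PrE sum was Utf1, at 148 to 297 CPM, against 22.1 to 124 CPM in ICM. In PrE, Gdf3 lay from 2.08 to 61.1 CPM and Tdgf1 reached 46.8 CPM in embryo 6. Nanog and Sox2 reached at most 5.87 and 2.33 CPM there, and Fgf4 had no count.

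All 6 PrE markers were present in PrE cells, but they differed in the ICM: Gata6 was already well detected there, Pdgfra was intermediate, and Gata4, Sox17, Sox7 and Lama1 reached at most 8.24 CPM in any ICM sum. Gata6 (ENSMUSG00000005836) ranged from 26.1 to 213 CPM (median 127) in the ICM sums, from 134 to 241 CPM (median 179.6) in the PrE sums and from 0 to 3.59 CPM (median 0) in the EPI sums. Of the 7 ICM sums 6 lay below every PrE sum, and the ranges overlapped through ICM embryo 11 alone, whereas every EPI sum lay below every ICM sum. The fitted log2 change from ICM to PrE was 0.66 ± 0.66 (SE) and did not pass the test (adjusted p = 0.51, edgeR quasi-likelihood test, Benjamini-Hochberg adjustment over 11863 genes, as for every adjusted p here). In EPI it fell by 6.51 on the log2 scale (adjusted p = 1.3e-05), and PrE and EPI differed by 7.17 ± 0.90 (adjusted p = 1.4e-05).

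Gata4 (ENSMUSG00000021944, chr14:63198922-63271692 in GRCm38), which activates extraembryonic endoderm genes, ranged from 0 to 4.31 CPM (median 1.05) in ICM and from 89.7 to 303 CPM (median 232) in PrE, a log2 change of 6.75 ± 0.80 (adjusted p = 2.5e-06). Sox17 (ENSMUSG00000025902, chr1:4490931-4497354) ranged from 0 to 8.24 CPM (median 1.05) in ICM and from 73.9 to 367 CPM (median 242) in PrE, with a change of 6.74 ± 1.01 (adjusted p = 4.3e-05). Sox7 (ENSMUSG00000063060, chr14:63943673-63950732), the last of the series to appear, had 7 counts in 1 of the 7 ICM sums and none in the others, against 102 to 287 CPM (median 163) in PrE (9.24 ± 1.25, adjusted p = 1.3e-05). None of these 3 factors had a PrE sum as low as the highest ICM sum.

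Pdgfra (ENSMUSG00000029231, chr5:75152292-75198215), the receptor for platelet-derived growth factor A and a surface marker of PrE precursors, was intermediate. It ranged from 2.26 to 56.2 CPM (median 10.0) in ICM and from 88.3 to 239.8 CPM (median 189) in PrE, without overlap, and rose by 3.05 ± 0.89 on the log2 scale (adjusted p = 0.014), a call lost in WT embryos alone, which leave 2 PrE sums (2.85, adjusted p = 0.14). In EPI it had fallen below the ICM level, by 4.5 (adjusted p = 0.002). Lama1 (ENSMUSG00000032796, chr17:67697259-67822647), the laminin alpha chain of the first embryonic basement membranes, ranged from 0 to 3.90 CPM (median 0) in ICM and from 824 to 1492 CPM (median 1242) in PrE. Its log2 change of 10.50 ± 1.07 (adjusted p = 3.7e-07) was the largest of the 6, and in EPI it did not pass the test (1.28 ± 0.83, adjusted p = 0.29).

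**Figure D1:**
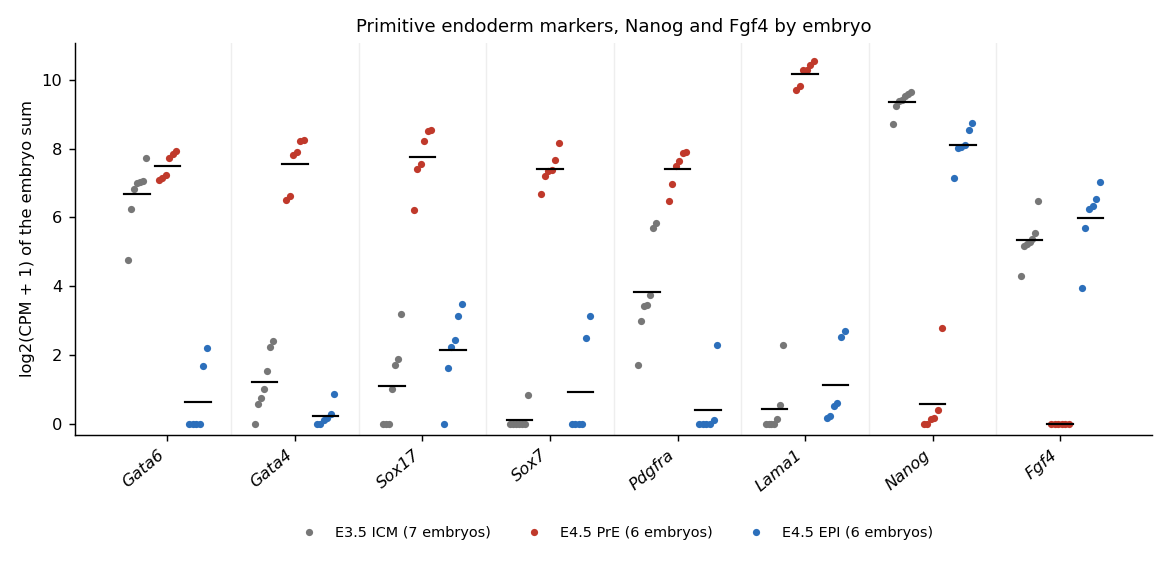
Level of the 6 PrE markers, Nanog and Fgf4 in each embryo, as log2(CPM + 1) of the counts summed over its cells (vertical axis), with 7 ICM, 6 PrE and 6 EPI points per gene and a bar at the group mean. Gata6 overlaps between ICM and PrE through 1 ICM embryo, and the other 5 markers do not overlap.

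The same contrast held at the level of single cells. Gata6 had 1 count or more in 58 of 58 ICM cells, 29 of 29 PrE cells and 2 of 37 EPI cells. Gata4 was detected in 14 ICM cells, Sox17 in 7, Sox7 in 1 and Lama1 in 3, against 29, 29, 28 and 29 of the 29 PrE cells. These ICM shares, from 1.72% for Sox7 to 24.1% for Gata4, lay below those in EPI cells for Sox17 (27%), Sox7 (10.8%) and Lama1 (32.4%) and above it for Gata4 (13.5%), at a median depth of 1335828 counts in ICM cells and 1681933 in EPI cells. All 7 ICM cells with Sox17 had 5 counts or more, as did 6 of the 10 EPI cells with it, and whether such counts are background was not tested. With each cell thinned to 600000 counts and 4 shallower ICM cells left out, Gata4 was detected in 12 of 54 ICM cells and 2 of 37 EPI cells. Pdgfra was detected in 33 ICM cells (56.9%) and in 2 EPI cells. Over embryos, the mean share of cells rose for Gata4, Sox17, Sox7 and Lama1 with the smallest p that 7 against 6 embryos allow (exact two-sided permutation p = 0.000583, adjusted p = 0.000874) and for Pdgfra from 57.5% to 100% (exact permutation p = 0.00874, adjusted p = 0.0105). Counting the markers per cell, 28 of 29 PrE cells had all 6 and 1 had 5, whereas 44 of 58 ICM cells had at most 2 and none had 5.

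Nanog, which holds cells in the EPI fate, showed the reverse. Among ICM cells, 56 of 58 held Gata6 and Nanog together at 10 CPM or more. At E4.5, 28 of 29 PrE cells held Gata6 without Nanog and 34 of 37 EPI cells held Nanog without Gata6, with 1 PrE cell and 2 EPI cells holding both. The median Nanog level was 672 CPM in ICM cells, 0 in PrE cells and 285 CPM in EPI cells. Fgf4 had 1 count or more in 39 of 58 ICM cells, 0 of 29 PrE cells and 25 of 37 EPI cells. By counting error alone, with cells of the same embryo taken as independent, 0 of 29 allows up to 10.3% of cells with a count.

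**Figure D2:**
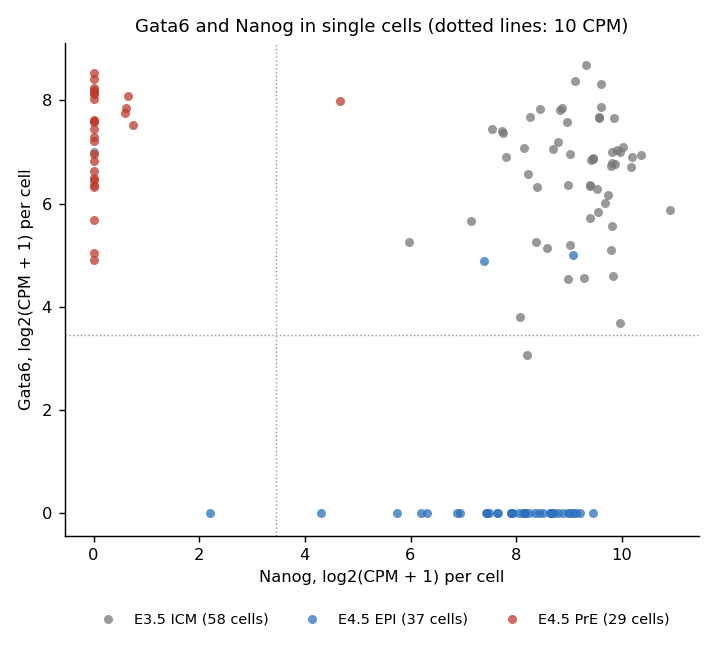
Gata6 (vertical axis) against Nanog (horizontal axis) in each control cell, both as log2(CPM + 1), with dotted lines at 10 CPM. Of the 58 ICM cells 56 lie above both lines, 28 of 29 PrE cells above the Gata6 line alone and 34 of 37 EPI cells above the Nanog line alone.

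Across the transcriptome, 1467 genes were higher in PrE than in ICM (12.4% of the 11863 genes tested) and 1897 lower (16%), 28.4% in all. The genes higher in PrE made up 43.6% of those called, but 23.3% in limma-trend fits with each cell weighted equally, 32.1% with embryo as a block and 34% in WT embryos alone, settings in which the median change over all genes was -0.53, -0.40 and -0.57 on the log2 scale in place of -0.11. Among genes with a mean of 10 CPM or more the share turned to 52.8%, with 1417 higher and 1269 lower and a median of -0.0065. Because the plates differ, changes of at least 4-fold (2 on the log2 scale) were sorted by what EPI did from the same ICM. Of 644 large increases (5.43% of genes tested), 167 were higher in PrE than in EPI and not higher in EPI than in ICM (1.41%), 360 also rose in EPI, 48 of them further in PrE, and 117 could be placed in neither class. Large decreases numbered 1063 (8.96%), of which 407 were lower in PrE than in EPI with no fall called in EPI (3.43%) and 464 fell in EPI too. In 32 of the large increases and 21 of the large decreases EPI changed in the opposite direction. The PrE and EPI changes share the ICM sums. In both directions together, 574 genes had a large change in PrE, differed from EPI and had no change called in the same direction in EPI, and 220 did when each fit held only the 2 groups compared. Decreases outnumbered increases here, but the order turned with 2 groups per fit (152 increases and 68 decreases), with each cell weighted equally (284 and 202) and with a mean of 10 CPM or more (151 and 126, 277 in all). For changes in both lineages it turned with the mean of 10 CPM or more (299 and 284). In all, 824 changed in both lineages, and 1268 did with embryo as a block and 1393 with each cell weighted equally.

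By a stricter rule, a gene was taken as switched on when its mean was at most 1 CPM in ICM and at least 20 CPM in PrE without overlap between embryos. Such genes numbered 60 (0.506% of those tested), and 22 of them were at 1 CPM or less in EPI too. Without E4.5 embryo 6, whose PrE sum rests on 2 cells, 93 genes met the rule. The reverse rule gave 76 genes switched off (0.641%), 32 of them without a single count in any PrE sum. A further 383 genes (3.23%) behaved like Gata6: their change from ICM to PrE did not pass the test, while they were lower in EPI than in ICM and than in PrE. This last class was defined after Gata6 had been seen.

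**Figure D3:**
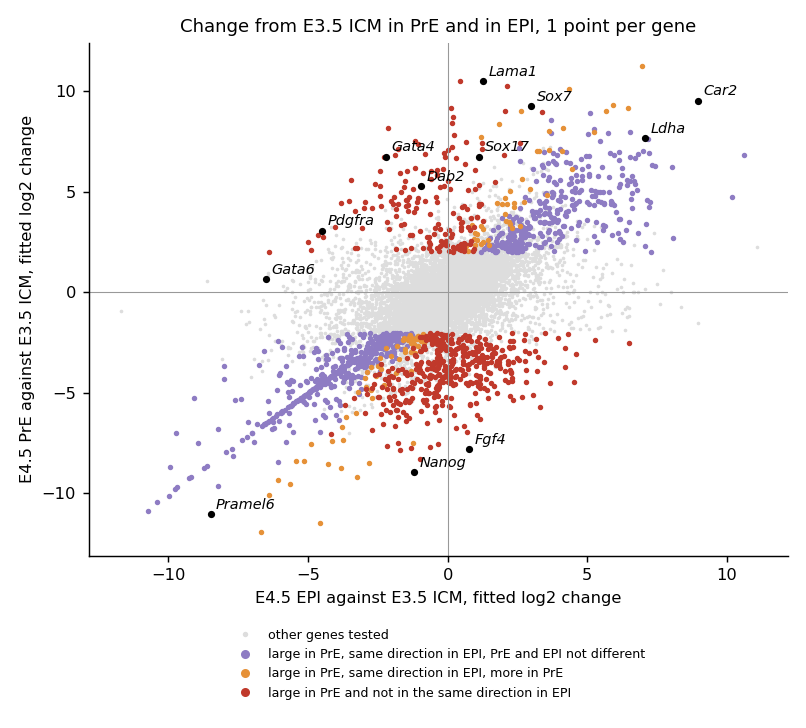
Fitted log2 change from E3.5 ICM in PrE (vertical axis) against that in EPI (horizontal axis), 1 point for each of 11863 genes. Red points are the 167 large increases and 407 large decreases in PrE with no change called in the same direction in EPI, purple points changed in the same direction in both, and orange points changed further in PrE, and both axes share the ICM samples.

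Among PrE transcription factors, Foxa2 and Foxq1 had next to no count in the ICM. Of 10 factors on the list, which includes the markers Gata6, Gata4, Sox17 and Sox7, 9 were tested, 6 rose, 3 of them markers, and none fell, with a median log2 change of 6.75 that is Gata4's own, against -0.11 over all genes tested. Over all genes tested 12.4% were higher and 16% lower in PrE than in ICM. For EPI against ICM these shares were 12.4% and 13.6%, and for PrE against EPI 7.97% and 9.36%. Each list's counts stand beside these shares. Foxa2 (ENSMUSG00000037025, chr2:148042877-148046969), a pioneer factor of endoderm, had no count in any ICM sum and 14.1 to 82.0 CPM (median 34.9) in PrE, at least 1243-fold higher (counts pooled over each group on the scale of the CPM, against a floor of 3 counts over the ICM group, adjusted p = 0.00014). It was detected in 0 of 58 ICM cells, 21 of 29 PrE cells and 1 of 37 EPI cells.

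Foxq1 went from 2 counts in all ICM sums to 4.95 to 79.6 CPM (median 34.1), a ratio of 1781 with a 95% counting interval of 493 to 14719 (adjusted p = 2.1e-05). Eomes, a T-box factor shared by endoderm and trophoblast, lay at 3.31 to 74.5 CPM (median 40.3) in ICM and 24.1 to 66.3 CPM (median 46.6) in PrE. Its EPI sums, 5.63 to 19.4 CPM (median 8.07), lay below every PrE sum but above the lowest ICM sum. Eomes was detected in 16 of 37 EPI cells. Hnf4a, a regulator of visceral endoderm, did not pass the test between ICM and PrE (-0.11 ± 1.17, adjusted p = 0.96) and ranged widely in PrE, from 1.65 to 77.6 CPM. Lhx1 was too low to test.

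Among receptors and adaptors, 13 of 15 genes were tested, 6 rose and 1 fell. The adaptor Dab2 (ENSMUSG00000022150, chr15:6299788-6440712), which links endocytic receptors to clathrin and is needed to place the endoderm at the surface, ranged from 14.6 to 99.5 CPM (median 54.7) in ICM and from 669 to 2783 CPM (median 2013) in PrE. No PrE sum came near the ICM range, and the log2 change was 5.26 ± 0.71 (adjusted p = 1.2e-05), against -0.97 ± 0.62 in EPI (adjusted p = 0.29). Pth1r, the receptor for parathyroid hormone-related protein that drives parietal endoderm formation, rose from 10 counts in all ICM sums to 167 to 658 CPM (median 382) (10.23 ± 1.17, adjusted p = 1.6e-06). Lifr, the receptor for leukaemia inhibitory factor, rose in PrE (4.09 ± 0.86, adjusted p = 0.0012) and in EPI (3.29 ± 0.83, adjusted p = 0.0054).

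Of the 4 FGF receptors, 1 fell, 1 did not pass the test and 2 rose in PrE. Fgfr1 ranged from 56.1 to 149 CPM (median 116) in ICM and from 0 to 24.9 CPM (median 5.01) in PrE, and fell by 3.84 on the log2 scale (adjusted p = 0.00039). Its EPI sums, 17.2 to 49.2 CPM, also lay below every ICM sum, although no fall was called in EPI. Fgfr2, the receptor that marks PrE precursors, did not pass the test in PrE, at 41.6 ± 27 CPM in ICM and 37.2 ± 11.9 CPM in PrE (log2 change -0.16 ± 1.03, adjusted p = 0.94), and fell in EPI to 1.82 ± 4.42 CPM (adjusted p = 0.01). Fgfr3 rose from 0.937 ± 1.57 CPM to 72.9 ± 38.1 CPM (6.03 ± 1.28, adjusted p = 0.0013), although 1 PrE sum had no count, and with embryo as a block the call was lost (adjusted p = 1). Fgfr4 went from 1.71 ± 1.02 CPM to 25.4 ± 16.2 CPM (adjusted p = 0.035), a call lost with the block (adjusted p = 1) and when any of 7 embryos was left out (adjusted p from 0.0507 to 0.0654).

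Of 19 targets and feedback regulators of FGF and ERK signalling, 18 were tested. In PrE 5 rose and 2 fell, and the 5 that rose, Dusp1, Dusp4, Dusp5, Egr1 and Etv4, rose in EPI too. The Dusp5 call was lost when any of 6 embryos was left out (adjusted p from 0.054 to 0.064). Egr1, an immediate early gene, ranged from 4.27 to 40.9 CPM (median 13.4) in ICM and from 103 to 543 CPM (median 149) in PrE (3.66 ± 0.47, adjusted p = 7.8e-06). Spry2, an inhibitor of receptor signalling, fell in PrE by 2.58 and in EPI by 2.62 (adjusted p = 4.5e-06 and 4.7e-06). Etv5, an ETS factor, fell in PrE (-1.63, adjusted p = 0.029, a call lost when any of 4 embryos was left out) and rose in EPI (1.92, adjusted p = 0.011). Etv1 had 8 counts in PrE and rose in EPI (6.33, adjusted p = 0.00062, PrE against EPI -7.18, adjusted p = 0.00098).

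Most of the basement membrane genes that could be tested rose. Of 27 genes, 19 were tested, 12 rose, 4 fell and 3 did not pass the test, with a median log2 change of 4.14. Their summed level went from 367 to 444 CPM in the ICM sums to 6460.0 to 10510.0 CPM in the PrE sums, and was 1022 to 1630.0 CPM in EPI. The 3 chains of laminin-111 rose together. Lamb1 (ENSMUSG00000002900, chr12:31265234-31329644) ranged from 8.30 to 21.9 CPM (median 18.5) in ICM and from 1437 to 2172 CPM (median 1760.0) in PrE (6.70 ± 0.57, adjusted p = 3.4e-08), and Lamc1 (chr1:153218922-153332786) from 11.3 to 40.4 CPM (median 28.5) and from 805 to 1109 CPM (median 903) (5.10 ± 0.33, adjusted p = 1.1e-09). In EPI neither passed the test (adjusted p = 0.91 and 0.071). Per length, as CPM per kilobase of exon, the chains stood at 122 for Lama1, 181 for Lamb1 and 112 for Lamc1 in PrE. In ICM they were at 0.0662, 1.71 and 3.25, with the alpha chain lowest.

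Other members of the list went the opposite way. Lama3, another laminin alpha chain, ranged from 8.91 to 76.8 CPM (median 43.2) in ICM and had 1 count in all PrE sums, a ratio of ICM over PrE of 2241 with a 95% counting interval of 402 to 88524 (adjusted p = 3.1e-05). Lama5 fell by 1.24 on the log2 scale (adjusted p = 0.014). Frem2, an extracellular matrix gene that is no laminin, went from 0 to 5.62 CPM (median 1.64) in ICM to no count in PrE (adjusted p = 0.011, and 0.24 in WT embryos alone). Fn1, fibronectin, did not pass the test in PrE (-0.19 ± 0.30, adjusted p = 0.7) and rose in EPI, from 48.7 ± 20.1 CPM to 408 ± 108 CPM (3.06 ± 0.32, adjusted p = 5.8e-07).

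Type IV collagen, the network of the basement membrane, was represented by its 2 most widely used chains. Col4a1 (ENSMUSG00000031502, chr8:11198423-11312826) ranged from 7.64 to 27.2 CPM (median 19) in ICM and from 259.8 to 746 CPM (median 522) in PrE (4.77 ± 0.62, adjusted p = 7.4e-06). Col4a2 (ENSMUSG00000031503, chr8:11312805-11449287) ranged from 12.2 to 22.6 CPM (median 18.3) and from 111 to 481 CPM (median 318) (4.14 ± 0.85, adjusted p = 0.00094). In EPI Col4a1 and Col4a2 stood at 3.11 ± 4.01 CPM and 4.64 ± 7.06 CPM, a change from ICM that passed the test for Col4a1 (adjusted p = 0.0041) and not for Col4a2 (adjusted p = 0.1). The other 4 chains of the family had no count in any ICM, PrE or EPI sum. Col4a1 and Col4a2 are head to head: in the RefSeq annotation of GRCm38.p6 their start sites are 21 bases apart on opposite strands, and the windows of 300 bases around them, 250 before and 50 after the start, share 78 bases. They are shown because the pair moved together. Capitals mark CCAAT, searched as these letters on both strands, which 37.4% of all 32851 RefSeq promoter windows hold, and a match is no evidence of binding.
Col4a1 chr8:11312777-11313076 (minus strand): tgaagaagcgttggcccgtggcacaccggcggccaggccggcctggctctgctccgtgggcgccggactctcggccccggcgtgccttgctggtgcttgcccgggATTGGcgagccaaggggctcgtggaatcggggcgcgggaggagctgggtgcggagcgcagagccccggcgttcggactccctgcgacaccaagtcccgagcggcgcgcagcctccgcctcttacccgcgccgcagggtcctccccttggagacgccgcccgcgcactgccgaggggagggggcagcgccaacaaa
Col4a2 chr8:11312555-11312854 (plus strand): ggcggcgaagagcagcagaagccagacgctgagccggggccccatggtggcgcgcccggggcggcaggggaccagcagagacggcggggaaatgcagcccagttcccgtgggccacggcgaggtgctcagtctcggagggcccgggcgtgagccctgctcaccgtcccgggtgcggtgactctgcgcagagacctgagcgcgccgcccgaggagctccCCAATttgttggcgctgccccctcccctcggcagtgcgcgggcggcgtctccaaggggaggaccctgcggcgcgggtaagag

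Sparc, a collagen-binding matrix protein, ranged from 0 to 24.1 CPM (median 9.70) in ICM and from 2176 to 3959.6 CPM (median 2931) in PrE (7.99 ± 0.65, adjusted p = 2.3e-08), and it rose less in EPI, to 437 ± 105 CPM (PrE against EPI 2.74 ± 0.55, adjusted p = 0.0018). Hspg2, the heparan sulfate proteoglycan perlecan, had no count in the ICM sums and 88.0 to 153 CPM (median 128) in PrE, at least 3376-fold higher (floor of 3 counts over the group, adjusted p = 1.1e-05), and 0 to 36.3 CPM (median 7.49) in EPI. Nid2 and Agrn rose in both E4.5 lineages, while Nid1 did not pass the test (-0.67 ± 0.29, adjusted p = 0.093) with overlapping ranges.

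Most of the tested enzymes and chaperones that collagen needs rose as well. Of 17 genes, 13 were tested, 9 rose and none fell (median 2.35). Of the 13, 9 were higher in PrE than in EPI, against 7.97% of all genes tested. Serpinh1 (ENSMUSG00000070436, chr7:99345376-99353239), the collagen chaperone HSP47, had 1 count in the 7 ICM sums and 329 to 689.9 CPM (median 495) in PrE, a ratio of 42434 with a 95% counting interval of 7615 to 1676100.0 (adjusted p = 6.9e-14). It rose in EPI too, to 25 ± 10.9 CPM, and PrE and EPI differed by 4.30 ± 0.31 (adjusted p = 1.6e-08). The prolyl hydroxylase subunits P4ha1, P4ha2 and P4hb rose by 2.77, 3.14 and 2.20 on the log2 scale (adjusted p = 2.3e-07, 0.017 and 2.4e-09). P4hb, which is also protein disulfide isomerase, was already at 515 to 1076 CPM (median 708) in ICM. Of the lysyl hydroxylases, Plod3 rose (2.84, adjusted p = 0.00051), Plod1 did not pass the test (0.17, adjusted p = 0.8), and Plod2 was at 84.6 ± 27.6 CPM in ICM, 255 ± 125 CPM in PrE (adjusted p = 0.058) and 7.35 ± 7.66 CPM in EPI (adjusted p = 0.0007 for EPI against ICM).

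**Figure D4:**
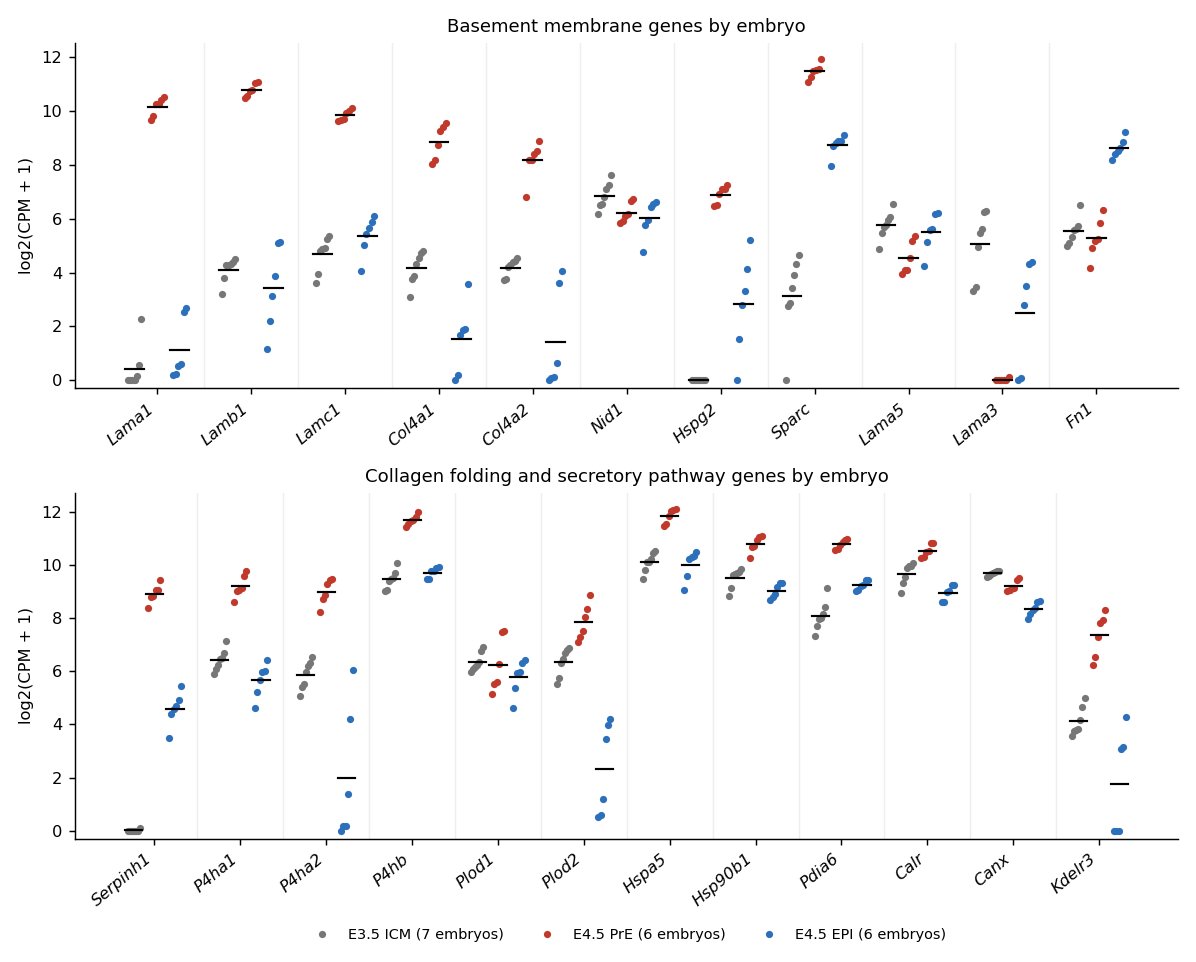
Level of 11 basement membrane genes (upper panel) and 12 collagen folding and secretory genes (lower panel) in each embryo, as log2(CPM + 1) of the embryo sum, with a bar at the group mean. Lama1, Lamb1, Lamc1, Col4a1 and Col4a2 lie higher in every PrE sum than in any ICM or EPI sum, Lama3 is at or near 0 there, and Fn1 is high in EPI.

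The secretory pathway, which carries matrix proteins through the endoplasmic reticulum (ER) and Golgi, changed by degree, with most genes already present in the ICM. Of 38 genes, 36 were tested, 18 rose and 3 fell in PrE (median 0.77), whereas in EPI 4 rose and 16 fell from the same ICM sums, against 12.4% and 13.6% of all genes tested. Between PrE and EPI, which share plate and embryos, 22 of the 36 were higher in PrE and none lower, against 7.97% and 9.36% of all genes tested. The summed level was 8330.0 to 11570.0 CPM in ICM, 18110.0 to 23460.0 CPM in PrE and 6817 to 9660.0 CPM in EPI. Xbp1, the transcription factor of secretory cells, ranged from 51.3 to 168 CPM (median 96.7) in ICM and from 417 to 599.6 CPM (median 497) in PrE (2.23 ± 0.30, adjusted p = 1.5e-05) and did not pass the test in EPI (adjusted p = 0.72). Kdelr3, a receptor that returns ER proteins from the Golgi, rose by 3.39 ± 0.87 (adjusted p = 0.0059), and its relative Kdelr1 by 1.01 (adjusted p = 0.003), while Kdelr2 did not pass the test (-0.00, adjusted p = 0.99). Sec61a1, the channel through which proteins enter the ER, rose by 1.67 ± 0.16 (adjusted p = 1.3e-07).

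ER chaperones carry a known promoter motif, the ER stress response element, and the deposited counts were read beside it. Hspa5 (ENSMUSG00000026864, chr2:34771970-34777547), the ER chaperone BiP, ranged from 715 to 1469 CPM (median 1119.6) in ICM and from 2837 to 4424 CPM (median 3934) in PrE (1.73 ± 0.21, adjusted p = 3.1e-06). Hsp90b1 rose by 1.28 ± 0.17, Pdia6 by 2.59 ± 0.21 and Calr by 0.84 ± 0.17 (adjusted p = 1.1e-05, 2.3e-08 and 0.001), without overlap between the ICM and PrE sums. Canx, the membrane-bound relative of calreticulin, fell by 0.45 (adjusted p = 0.0067), and fell further in EPI, by 1.32 (adjusted p = 1.2e-07). The motif was searched as CCAAT, 9 bases of any kind and CCACG, on both strands, a spelling that contains the CCAAT box. It is held by 39 of 32851 RefSeq promoter windows of 300 bases in GRCm38.p6 (0.119%) and by 5 of the 33 secretory genes that have a window, which are the 5 genes just named. They are printed 5′ to 3′ along the gene, with 250 bases before and 50 after the start site and the match in capitals. Hsp90b1 holds 2 matches, and Canx, which fell, holds 1.
Hspa5 chr2:34771840-34772139 (plus strand): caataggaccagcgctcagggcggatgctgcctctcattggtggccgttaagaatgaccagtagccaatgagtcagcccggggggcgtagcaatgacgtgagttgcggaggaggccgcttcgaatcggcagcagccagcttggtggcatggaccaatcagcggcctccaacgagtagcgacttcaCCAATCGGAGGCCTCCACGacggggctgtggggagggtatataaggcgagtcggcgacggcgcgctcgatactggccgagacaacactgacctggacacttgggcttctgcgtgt
Hsp90b1 chr10:86705395-86705694 (minus strand): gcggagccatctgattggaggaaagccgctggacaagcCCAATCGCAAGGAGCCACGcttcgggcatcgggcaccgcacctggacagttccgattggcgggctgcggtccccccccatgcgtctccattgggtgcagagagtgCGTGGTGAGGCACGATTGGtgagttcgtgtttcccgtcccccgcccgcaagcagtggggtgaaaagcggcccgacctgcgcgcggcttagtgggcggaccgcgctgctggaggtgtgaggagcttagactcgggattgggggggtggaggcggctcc
Pdia6 chr12:17266339-17266638 (plus strand): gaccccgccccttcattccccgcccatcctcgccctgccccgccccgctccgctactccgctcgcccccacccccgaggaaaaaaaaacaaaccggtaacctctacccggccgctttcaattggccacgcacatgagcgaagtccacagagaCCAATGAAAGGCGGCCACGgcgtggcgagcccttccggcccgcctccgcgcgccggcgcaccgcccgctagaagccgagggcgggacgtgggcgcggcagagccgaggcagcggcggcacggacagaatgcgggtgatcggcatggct
Calr chr8:84846882-84847181 (minus strand): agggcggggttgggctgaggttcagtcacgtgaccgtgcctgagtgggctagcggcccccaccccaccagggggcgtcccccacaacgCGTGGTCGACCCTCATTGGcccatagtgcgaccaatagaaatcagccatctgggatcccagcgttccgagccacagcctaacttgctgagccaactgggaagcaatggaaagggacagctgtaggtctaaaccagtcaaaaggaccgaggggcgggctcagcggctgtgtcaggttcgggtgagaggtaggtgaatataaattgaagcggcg
Canx chr11:50325624-50325923 (minus strand): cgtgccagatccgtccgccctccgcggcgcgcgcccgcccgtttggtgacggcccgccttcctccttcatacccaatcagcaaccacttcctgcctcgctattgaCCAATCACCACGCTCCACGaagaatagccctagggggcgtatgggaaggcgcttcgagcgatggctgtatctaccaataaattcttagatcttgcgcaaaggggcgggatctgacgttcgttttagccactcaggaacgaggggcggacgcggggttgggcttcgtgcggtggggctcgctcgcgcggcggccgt

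Several endocytic receptors and their partners rose. Of 19 endocytic genes 14 were tested, 6 rose, 1 fell and 7 did not pass the test (median 0.65), and 1 of the 6, Scarb1, lost its call when any of 4 embryos was left out (adjusted p from 0.061 to 0.077), with embryo as a block (adjusted p = 0.055) and with no filter on low counts (adjusted p = 0.053). The multiligand receptors Cubn and Lrp2, with the subunit Amn that brings cubilin to the cell surface, rose together. Cubn ranged from 0 to 20.6 CPM (median 2.88) in ICM and from 255 to 1347 CPM (median 799.8) in PrE (6.74 ± 1.00, adjusted p = 3.7e-05), Lrp2 from 2.57 to 38.6 CPM (median 13) and from 82.4 to 1464 CPM (median 739) (5.59 ± 0.89, adjusted p = 8.1e-05), and Amn from 0 to 0.959 CPM (median 0.468) and from 253 to 980.3 CPM (median 649.8) (10.10 ± 0.90, adjusted p = 6.5e-08). Amn rose in EPI too, to 11.9 ± 12.9 CPM (adjusted p = 0.00015). The PrE sums of Lrp2 were widely spread, but none reached down to the ICM range. Lrpap1, the chaperone of this receptor family, was already at 611 to 1031 CPM (median 894) in ICM, rose by 2.20 ± 0.17 in PrE (adjusted p = 8.3e-09) and fell by 1.30 in EPI (adjusted p = 8e-06).

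The window around the Dab2 start site in RefSeq is shown for the letters AGATAA and TGATAA, 2 spellings recognised by GATA factors, searched on both strands. The 2 spellings do not overlap in it. AGATAA is held by 11.2% and TGATAA by 9.05% of all 32851 windows. Of 134 genes with a window with a large increase in PrE that was not called as an increase in EPI, 13 hold AGATAA (9.70%, against 12.7% of all 27025 genes with a window) and 9 hold TGATAA (6.72%, against 10.4%), so neither share was above that of all genes. Of the 2 RefSeq windows of Dab2, the one with both spellings is printed, and the matches are in capitals.
Dab2 chr15:6299539-6299838 (plus strand): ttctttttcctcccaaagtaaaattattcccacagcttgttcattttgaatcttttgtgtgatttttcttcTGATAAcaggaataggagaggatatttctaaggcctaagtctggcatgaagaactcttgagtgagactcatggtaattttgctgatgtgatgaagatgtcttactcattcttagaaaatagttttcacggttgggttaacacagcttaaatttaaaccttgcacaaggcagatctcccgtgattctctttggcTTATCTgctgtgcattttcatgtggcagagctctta

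Genes of later endoderm were present in part. On the parietal list 10 of 14 genes were tested, and 9 rose and none fell (median 7.39). This list shares members with others, such as Stra6, which is also among the lipid and retinol carriers, so the counts of the lists overlap. Pga5, named below by the size of its change, is a member as well. Stra6, the receptor for the retinol carrier, had no count in ICM and 32.2 to 266 CPM (median 90.7) in PrE, at least 3408-fold higher (adjusted p = 1.1e-07). Plat, tissue plasminogen activator, rose (5.55, adjusted p = 0.01) with overlapping sums, and the call was lost with embryo as a block (adjusted p = 1). Snai1 did not pass the test in PrE, at 19.5 ± 8.96 CPM in ICM and 24.3 ± 15.8 CPM in PrE, and fell in EPI, to 1.02 ± 1.77 CPM (adjusted p = 0.0037). Thbd, Fst, Cd93 and Gpr1 had no count in any PrE sum.

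On the visceral list 11 of 21 genes were tested, 7 rose and 1 fell. Dkk1, a secreted WNT antagonist, ranged from 0 to 3.56 CPM (median 0) in ICM and from 100.2 to 621 CPM (median 325) in PrE (8.41 ± 1.24, adjusted p = 3.7e-05), and did not pass the test in EPI (adjusted p = 0.95). Lefty1, an inhibitor of NODAL, rose in both lineages (7.99 in PrE and 6.53 in EPI), and in PrE its sums spanned 0.303 to 334 CPM. Otx2 fell by 5.16 in PrE (adjusted p = 0.00011) and rose by 2.23 in EPI (adjusted p = 0.036). Of the serum proteins of mature visceral endoderm, Afp, Apob, Fga and Fgg had no count in any PrE sum, Fgb had counts in embryo 7 alone (15.8 CPM), Ttr was detected in 8 of 29 PrE cells at no more than 6.37 CPM per sum, and Apoa4 reached 6.01 CPM. The apolipoprotein gene Apom ranged from 0 to 1.71 CPM (median 0.527) in ICM and from 0 to 191 CPM (median 30.9) in PrE (6.06 ± 1.54, adjusted p = 0.0056), with no count in embryo 6. Cer1 had no count in any sum.

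The 10 largest increases of those seen in PrE and not in the same direction in EPI, taken by fitted log2 change among genes with a mean of 20 CPM or more over the ICM and PrE sums that did not overlap between them, had ICM means of at most 3.00 CPM. Besides Lama1, Pth1r, Stra6 and Dkk1 they were Pga5, a pepsinogen gene, Tfec, Flrt3, Pla2g12b, Aqp8 and Srgn. Pga5 (ENSMUSG00000024738) had no count in any ICM sum and 92.3 to 462 CPM (median 286) in PrE, at least 8220.1-fold higher (adjusted p = 5.3e-09). Pla2g12b had no ICM count either and 41.2 to 156 CPM (median 72.1) in PrE, at least 2222-fold higher (adjusted p = 6.6e-08). Tfec, a transcription factor of the MITF and TFE family, rose by 9.0 ± 1.37, the adhesion protein gene Flrt3 by 8.98 ± 1.59, the water channel Aqp8 by 8.17 ± 1.10 and the proteoglycan serglycin gene Srgn by 7.81 ± 1.2 (adjusted p = 5.2e-05, 0.00024, 1.2e-05 and 5.8e-05). Aqp8 lay from 615 to 935 CPM (median 765) over the 6 PrE sums.

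The pluripotency network was taken down unevenly. All 30 factors on the list were tested: in PrE 19 fell, 6 rose and 5 did not pass the test (median -1.82), whereas in EPI 6 fell and 12 rose, and 20 were lower in PrE than in EPI. Nanog (ENSMUSG00000012396, chr6:122707489-122714633) ranged from 422 to 804 CPM (median 683) in ICM and from 0 to 5.87 CPM (median 0.118) in PrE, and fell by 8.95 (adjusted p = 1.3e-07). Without embryo 4, its highest PrE sum was 0.33 CPM. Fgf4 had no count in any PrE sum against 18.7 to 88.2 CPM (median 37.7) in ICM, at least 753-fold lower (floor of 3 counts over the PrE group, adjusted p = 1e-07). Prdm14, a repressor that guards the naive state, went from 4.28 to 24.6 CPM (median 13.7) to 1 count in all PrE sums (ratio of ICM over PrE 753, 95% counting interval 135 to 29755, adjusted p = 5.5e-07).

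Sox2 fell by 4.61, Klf2 by 4.12 and Tfcp2l1 by 4.5 (adjusted p = 7.5e-05, 0.0012 and 7.2e-06), and none of the 3 passed the test in EPI. Pou5f1, the gene for OCT4, was lowered but not lost: it ranged from 204 to 441 CPM (median 277) in ICM and from 47.3 to 155 CPM (median 80.0) in PrE, and fell by 1.77 (adjusted p = 0.00025). It fell in EPI as well, by 1.06 (adjusted p = 0.014), and PrE and EPI did not differ beyond their spread (-0.71 ± 0.31, adjusted p = 0.13). In WT embryos alone, which leave 2 PrE sums, it fell by 1.94 on the log2 scale (adjusted p = 0.016). Klf4 did not pass the test (0.27 ± 0.37, adjusted p = 0.64). Klf5 rose in PrE, from 146 ± 37.7 CPM to 304 ± 57.2 CPM (1.06 ± 0.24, adjusted p = 0.0024), and was higher there than in EPI (adjusted p = 0.0016). Sall4, Utf1 and Tcl1 rose in both lineages.

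Several factors parted from ICM in opposite directions. Zfp42, a marker of naive cells also called Rex1, ranged from 250.1 to 304 CPM (median 289) in ICM, fell to 96.4 to 167 CPM (median 139.8) in PrE (adjusted p = 0.00055) and rose to 356 to 966 CPM (median 451) in EPI (adjusted p = 0.0014). The 3 ranges did not overlap. Tdgf1, a co-receptor for NODAL, fell by 4.49 in PrE (adjusted p = 0.0053) and rose by 3.66 in EPI (adjusted p = 0.0096). Its PrE sums lay from 0.101 to 0.308 CPM except that of embryo 6, at 46.8 CPM. The sum of embryo 6 lay within the ICM range of 30.8 to 362 CPM. Morc1, a germline chromatin factor, had 1 count in PrE against 4.33 to 18.5 CPM (median 11.9) in ICM (ratio of ICM over PrE 571, 95% counting interval 102 to 22592) and 72.3 to 206 CPM (median 103) in EPI.

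**Figure D5:**
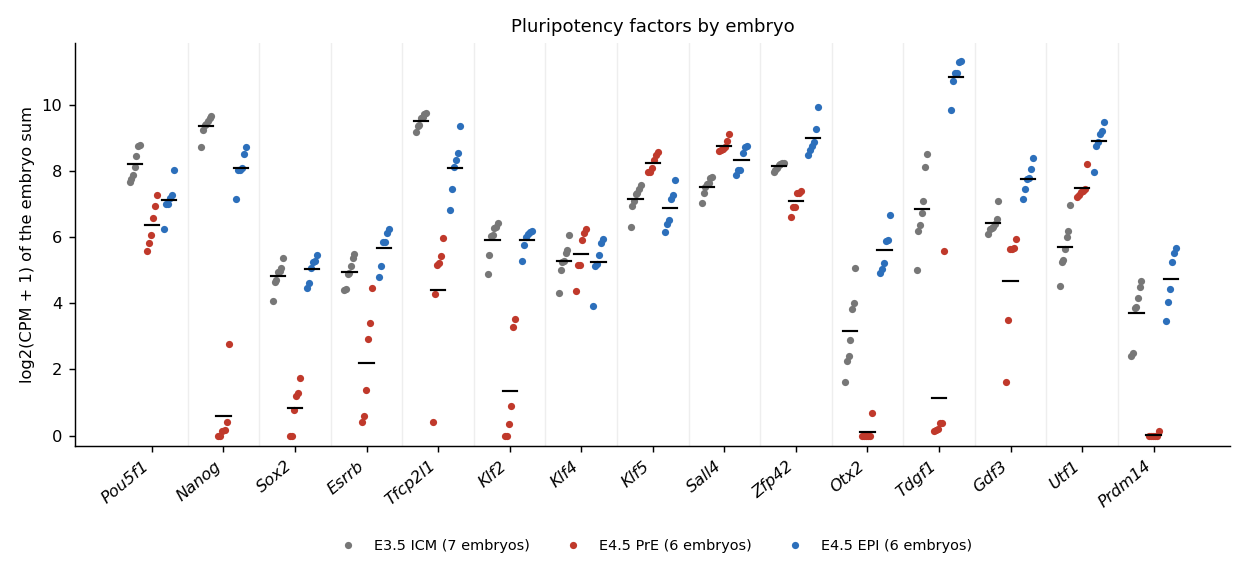
Level of 15 pluripotency factors in each embryo, as log2(CPM + 1) of the embryo sum, with a bar at the group mean. Nanog, Sox2, Klf2 and Prdm14 are lower in every PrE sum than in any ICM or EPI sum, Klf4 overlaps between the groups, and Klf5 and Sall4 are higher in PrE than in ICM.

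The largest decreases of that kind were led by Nanog and included Fgf4, Lama3, Ak7, Actn2, Uchl1, Stmn3, Zfp219, Ildr1 and BC028528. Ak7, an adenylate kinase gene, ranged from 12.5 to 141 CPM (median 45.9) in ICM, Actn2, a muscle-type alpha-actinin gene, from 35.4 to 69.9 CPM (median 39.9), and the deubiquitinase gene Uchl1 from 5.18 to 85.9 CPM (median 27.5), and none of the 3 had a count in any PrE sum (adjusted p = 4e-07, 0.00048 and 1.8e-05). These are at least 1003-fold, 726-fold and 709-fold lower against the same floor. In EPI all 3 were still detected, at means of 30.0, 13.5 and 16.2 CPM.

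For genes that changed in both lineages, stage and plate cannot be told apart, and both changes share the ICM sums. HET embryos also made up a larger part of the E4.5 groups than of the ICM group, and their part in these changes was not tested. Leaving out genes that changed further in PrE than in EPI, the 5 largest shared increases were Car2, Ldha, Epha2, Casq2 and Maged2. With the same limit the 5 largest shared decreases were Pramel6, Alppl2, Pramel5, Pramel4 and Tat. Ldha, lactate dehydrogenase A, ranged from 1.96 to 21.5 CPM (median 7.13) in ICM and from 710.0 to 2542 CPM (median 1586) in PrE (7.65 ± 0.56, adjusted p = 4.9e-09), with 7.07 ± 0.54 in EPI (adjusted p = 1.2e-08). Of 21 glycolytic genes 15 rose and none fell in PrE, and 18 rose in EPI. Single members differed between PrE and EPI: the glucose transporter Slc2a3 was higher in PrE (2.44 ± 0.34, adjusted p = 5.3e-05), as was the phosphofructokinase Pfkl (1.65 ± 0.18, adjusted p = 1.8e-06), and the phosphofructokinase Pfkp was higher in EPI (-4.77 ± 0.64, adjusted p = 3.5e-05). Several glycolytic genes and the Pramel and Trim43 families have near-identical copies, and since read pairs that map to several places were not counted their levels are uncertain.

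Genes of the oocyte and cleavage stages mostly fell. Of 35 genes 16 were tested, 13 fell and 1, Ooep, rose. Pramel5 ranged from 153 to 469 CPM (median 253) in ICM and had no count in any PrE or EPI sum. Timd2, of the same list, parted the E4.5 lineages: it ranged from 312 to 1541 CPM (median 765) in ICM, from 203 to 771 CPM (median 424) in PrE and from 0 to 0.171 CPM (median 0.0320) in EPI. It fell by 0.94 in PrE (adjusted p = 0.038), a call lost when any of 7 embryos was left out (adjusted p from 0.0568 to 0.105), and by 11.71 in EPI (adjusted p = 1.3e-11).

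Among metabolic genes, 12 of 24 cholesterol synthesis genes rose in PrE and none fell (median 1.52), 11 were higher in PrE than in EPI and none lower. Cyp51, lanosterol demethylase, ranged from 24.2 to 74.8 CPM (median 55.4) in ICM and from 243 to 542 CPM (median 429) in PrE (2.97 ± 0.26, adjusted p = 5.2e-08; in EPI 0.99 ± 0.25, adjusted p = 0.0051). Hmgcs1, an early enzyme of the pathway, did not pass the test (0.11, adjusted p = 0.84). Fabp3, a fatty acid binding protein, rose in PrE and did not pass the test in EPI, from 10.1 to 92.5 CPM (median 62.5) in ICM to 659.9 to 1352 CPM (median 967) in PrE (4.15 ± 0.46, adjusted p = 1.1e-06; PrE against EPI adjusted p = 5e-05), and Fabp5 fell in both lineages (-2.43 and -2.34). The PrE sum of Fabp5 was 274 CPM in embryo 1 and from 18.4 to 50.6 CPM in the other embryos. Apoe rose in both lineages, to 1669 ± 671 CPM in PrE and 1969 ± 191 CPM in EPI. Of the 21 lipid and retinol carriers 11 were tested, 5 rose and 1, Fabp5, fell.

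Of 22 keratin and junction genes 17 were tested, 3 rose and 5 fell, against 12.4% and 16% of all genes tested. Epcam fell by 2.33 and Cdh1, E-cadherin, by 1.11 (adjusted p = 2.4e-06 and 0.0054), and both fell in EPI too. The tight junction gene Cldn6 rose (6.47, adjusted p = 0.0012) over a wide range of PrE sums, 88.7 to 1288 CPM (median 566). Krt8 ranged from 73.5 to 442 CPM (median 187) in ICM and from 7.21 to 413 CPM (median 79.6) in PrE, with the highest PrE sum in embryo 6, did not pass the test (-0.58 ± 0.94, adjusted p = 0.71, and -1.32, adjusted p = 0.37, without that embryo) and was lower in EPI (11.4 ± 17 CPM, adjusted p = 0.0072). Of 13 integrins and matrix receptors tested, 3 rose and 2 fell, close to those shares in the downward direction, and the call of Itga5, 1 of the 3, was lost when any of 7 embryos was left out (adjusted p from 0.051 to 0.099). The syndecan Sdc4 rose in PrE (1.52, adjusted p = 0.017) and fell in EPI (-1.29, adjusted p = 0.048), and Itgb1 fell in both. The DNA methyltransferase genes Dnmt3a, Dnmt3b and Dnmt3l rose in both lineages, and Dnmt3a and Dnmt3b were higher in PrE than in EPI. Dnmt3a went from 13 ± 5.76 CPM to 290.1 ± 93.5 CPM in PrE and 67.8 ± 49.6 CPM in EPI (PrE against EPI 2.09 ± 0.45, adjusted p = 0.003). Of 10 genes of DNA methylation, 4 rose and 2, Tet1 and Tet2, fell.

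Lists of other cell types were counted in the same way, against 12.4% higher and 16% lower over all genes tested. Of 20 trophectoderm genes 11 were tested, 5 fell and 1 rose. The gene that rose was Fabp3, already described, and Tfap2c, a trophectoderm and germline factor, went from 55.8 to 160.3 CPM (median 104) in ICM to 0 to 0.707 CPM (median 0) in PrE (adjusted p = 6.5e-06). Of 13 genes of the formative epiblast, the stage after the naive one, 6 were tested, 4 rose and 1, Otx2, fell, the 4 being Fgf5, Etv4, Dnmt3a and Dnmt3b, all of which rose in EPI as well. The Fgf5 call was lost with embryo as a block (adjusted p = 1). Of 18 blood, stroma and uterine genes 2 were tested: Pecam1, an adhesion molecule that ICM cells also carry, fell from 129 ± 13.4 CPM to 3.84 ± 6.84 CPM (adjusted p = 0.00067), and Lum rose from no count to 4.08 ± 7.01 CPM (adjusted p = 0.02, and 1 with embryo as a block).

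In WT embryos alone, the calls between ICM and PrE were lost for Fgfr3, Fgfr4, Nid2, Agrn, P4ha2, Itgb1, Plat, Dusp1, Etv5, Klf5, Zfp42, Tdgf1, Fgf5, Timd2, Cdh1, Tet1, Kdelr1, Kdelr3, Calr, Canx, Scarb1, Itga5, Frem2 and Pdgfra (adjusted p from 0.054 to 0.27), and with each cell weighted equally for Dusp1, Dusp5, Fgf5, Timd2, Lum, Kdelr1, Canx, Scarb1 and Itga5 (adjusted p from 0.051 to 0.55).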

How the data were processed

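Per the labels and the methods of the study, single cells were sequenced with Smart-seq2 as 125 bp paired ends, aligned to mm10 (GRCm38) with STAR 2.5.2a and counted with htseq-count on Ensembl release 87, and the authors removed cells that failed their quality control. The deposited values are raw counts of read pairs for 49671 genes, 1 file per cell and not normalised. Over the control cells 44.99% of read pairs were in no single gene (over all 172 cells 32.3% mapped to several places, 8.65% were ambiguous and 4.72% lay in no feature), and these were left out of library sizes and tests.

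Groups came from the labels, and the embryo of each cell from the cell table of the study. Counts were summed per embryo and tested with the edgeR 4.0.16 quasi-likelihood test (R 4.3.3, filterByExpr, TMM, prior count 2) in 1 fit over the ICM, PrE and EPI sums, with 11863 genes tested and calls at an adjusted p under 0.05 (Benjamini-Hochberg). The study tested cells with another tool, which was not used here. P-values measure the spread between embryos of 1 plate per stage, and intervals and floors cover counting error only, since reads carry no molecular identifiers. Shares of cells were compared over embryos with an exact permutation test (scipy 1.17.1).

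PrE and EPI sums of an E4.5 embryo come from the same animal, so the alternative with embryo as a block is a paired fit. Their deviations from the group means correlated by 0.058, 0.036, 0.0091, 0.040, 0.018 and 0.045 in embryos 1, 2, 4, 5, 6 and 7, and each sum but those of embryo 4 matched its own embryo best. Alternatives were DESeq2 1.42.0, its size factors in edgeR, other filters on low counts, limma-trend (limma 3.58.1) on log2(CPM + 1) with each cell weighted equally, 2 groups per fit, WT embryos alone, without 7 shallow cells (totals below 0.5 times the stage median), the embryo block, a test against a 2-fold change and leaving out each embryo.

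On simulated counts with 200 changed genes, not all of which passed the filter to the 11334 tested, the ICM to PrE fit recovered 42% and 30% of genes with log2 changes of 2 and -2, 62% and 66% of those with 4 and -4, and called 4 of 11147 unchanged genes. Named genes were the 6 markers, members of hand-written lists, and genes picked by the size of their change. The last had a mean of 20 CPM or more over the 13 sums and no overlap. In each direction they were the 10 largest changes seen in PrE and not in the same direction in EPI. To these were added, in each direction, the 5 largest seen in both and not further in PrE, with predicted genes passed over. A few list members are counted but not reported here by name. The samples compared, the markers and the lists were chosen with earlier results of these data known.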

Additional observations from a re-analysis of the deposited data

Results flagged for a closer look

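For the 6 markers, the change from ICM in PrE differed from that in EPI, tested in the same edgeR fit as the difference between PrE and EPI. The difference on the log2 scale was 7.17 for Gata6 (adjusted p = 1.4e-05), 8.95 for Gata4 (1.7e-06), 5.61 for Sox17 (0.00077), 6.25 for Sox7 (0.0012), 7.55 for Pdgfra (0.00014) and 9.22 for Lama1 (8.2e-06). Cells had been assigned to PrE or EPI from these same transcriptomes, so the differences describe the assigned classes.

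A single embryo lay apart from the others of its group in 21 of 60 groups of values, over 35 genes, always as the highest sum. Chance gives about 1 in 20 groups, for values that follow a normal distribution, which low counts do not. Among the ICM sums, the highest sums of genes that rose in PrE were Sox17 at 8.24 CPM in embryo 11, Sox7 at 0.818, Pth1r at 1.05 and Tfec at 1.40 CPM in embryo 13, Lama1 at 3.90 and Flrt3 at 8.08 CPM in embryo 16, and Dkk1 at 3.56 CPM in embryo 18. Of the genes that rose in both lineages, Car2 stood at 1.76 and Maged2 at 2.11 CPM in ICM embryo 15, and Ldha at 21.5 and Casq2 at 0.548 CPM in ICM embryo 14. Of the genes that fell in PrE, Actn2 was at 69.9 CPM in ICM embryo 9, Fgf4 at 88.2 CPM in embryo 14 and Pramel6 at 935 CPM in embryo 18.

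Among the PrE sums, some of these levels are single counts, which must lie in 1 embryo. Nanog was at 5.87, Stmn3 at 2.83 and Lama3 at 0.101 CPM in embryo 4, Zfp219 at 1.16 and Ildr1 at 5.24 CPM in embryo 2, BC028528 at 0.101 CPM in embryo 5 and Pramel6 at 0.330 CPM in embryo 6.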

How the results depend on the processing

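Of 3364 genes called between ICM and PrE, the number was 5158 with each cell weighted equally and 1596 when tested against a 2-fold change, and 2912 to 3660 when an embryo was left out. Between EPI and ICM, 3079 became 5341 with each cell weighted equally, 1953 in WT embryos alone and 1359 against a 2-fold change (2646 to 3417 without an embryo). Between PrE and EPI, 2056 became 958 with 2 groups per fit, 907 in WT embryos alone and 864 against a 2-fold change (1769 to 2137). The 574 large changes in PrE and not in the same direction in EPI became 277 with a mean of 10 CPM or more, 220 with 2 groups per fit and 363 against a 2-fold change (480 to 607). The 824 large changes in both became 1393 with each cell weighted equally and, in the fit paired by embryo as a block, 1268 (690 to 987). The 136 genes switched on or off became 303 in WT embryos alone, which leave 2 PrE sums (133 to 169 without an embryo). In WT embryos alone 70 were switched on in place of 60, and 233 off in place of 76. The 5 markers detected in more PrE than ICM cells remained 5 with 5 counts, 1 CPM or thinned cells.

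Of 6862 values for 301 listed genes, none reversed, 6536 kept their side of the threshold, 220 lost and 106 gained the call. Of 196 called genes 78 lost the call in at least 1 setting, and 29 in a setting other than WT embryos alone and the 2-fold test. With embryo as a block the calls of Fgfr3, Fgfr4, Plat, Fgf5 and Lum were lost. In that fit an E4.5 embryo with no count in either lineage has an unbounded level. The Scarb1 call was lost as well (adjusted p = 0.055, edgeR), although Scarb1 had counts in every PrE and EPI sum. Causes of these and the other shifts were not tested. Depth limits the low genes: the PrE sum of embryo 6 holds 2736296 counts from 2 cells.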
